A study of Mus musculus with 24 samples.

Results

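The genes described here are 10 markers of the primitive streak and mesendoderm, chosen by symbol: T (brachyury), Eomes, Mixl1, Gsc, Foxa2, Evx1, Mesp1, Sp5, Wnt3 and Fgf8. Of these, 9 have a row in both results tables, among 20625 gene symbols in either table and 19134 in both. Mesp1, a basic helix-loop-helix factor of nascent mesoderm, has no row in either results table given here, so its expression was not analysed. The lowest mean normalized count of a listed member in the authors' deposited tables is 17.7 in control cells and 13.5 in paused cells, both for Foxa2. No member's mean therefore lies under 10. These means pool the genotypes, and the levels implied per genotype fall under 10 for Foxa2 and Fgf8 in paused cells, as given below. All cells were mouse E14 embryonic stem cells, kept on gelatin in serum with leukaemia inhibitory factor. The 24 poly(A) RNA libraries form 6 groups of 4: wild type, Smad2_KO1 and Smad2_KO2, each in control medium or paused by 12 h with 200 nM INK128, an inhibitor of the mTOR kinase. Smad2 is a transcriptional effector of Nodal and activin receptors, and the comparison sets knockout against wild type within each condition. The labels do not say how the knockout lines were made or whether each is a single clone, nor that replicates came from separate cultures, so the p-values measure a spread that may be technical.

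The primitive streak is the site in the gastrulating embryo where epiblast cells leave the epithelium and become mesoderm or definitive endoderm. Nodal, working through Smad2 and Smad3, and Wnt3, working through beta-catenin, start it, and T, Eomes and Mixl1 are among the factors they switch on. In embryonic stem cells grown in serum, transcripts of such genes are known from a minority of cells.

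There is 1 table per condition, and a gene's row holds its mean normalized count, a log2 change, the standard error of that change (SE) and a p. No value for a single library was analysed here, so depth, overlap between libraries and differences between the knockout lines are not given. Smad2 itself was lower in both of the authors' deposited tables, by -0.35 (SE 0.07, adjusted p 6.5e-06) in control cells and -0.63 (SE 0.06, adjusted p 4.1e-26) in paused cells. Because the tables do not name the group on top, changes are read as knockout over wild type from this fall, and under the other reading all directions would be inverted. On the reading used, Smad2 RNA stood at 78.6% of wild type in control and 64.6% in paused knockout cells. Smad2 protein was not analysed here. Embryonic stem cell markers were abundant, with means from 8797 to 51710 normalized counts for the 9 markers in the authors' deposited table of control cells. Of these 9, 2 were called lower and 2 higher in control cells, near the 21.9% and 19.5% of all genes, with a median change of 0.06 in the authors' deposited table. The adjusted p is from DESeq2's test, and a gene is called when it is under 0.05.

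Most of the streak genes were lower in the Smad2 knockout, in both conditions. In the authors' deposited table of control cells 6 of the 9 members were called lower (T, Sp5, Wnt3, Fgf8, Mixl1 and Eomes), 1 was called higher (Gsc) and 2 were not called (Foxa2 and Evx1). The background was 21.9% of 19778 genes called lower and 19.5% called higher. In the authors' deposited table of paused cells 5 of the 9 were called lower (T, Sp5, Wnt3, Fgf8 and Mixl1) and 0 higher, against 22.0% and 20.5% of 19979 genes. The falls were steep. A called fall of at least 4-fold was found for 4 of 9 members in each table (T, Sp5, Wnt3 and Fgf8), against 0.581% of genes in control and 0.551% in paused cells. The median change of the members was -1.51 in the authors' deposited table of control cells and -1.60 in that for paused cells, where the medians of all genes were 8.5e-04 and -0.0016. In bulk RNA, fewer cells with these transcripts and less RNA per cell cannot be told apart, and neither can loss of Smad2 and other differences between the cell lines.

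**Figure D1:**
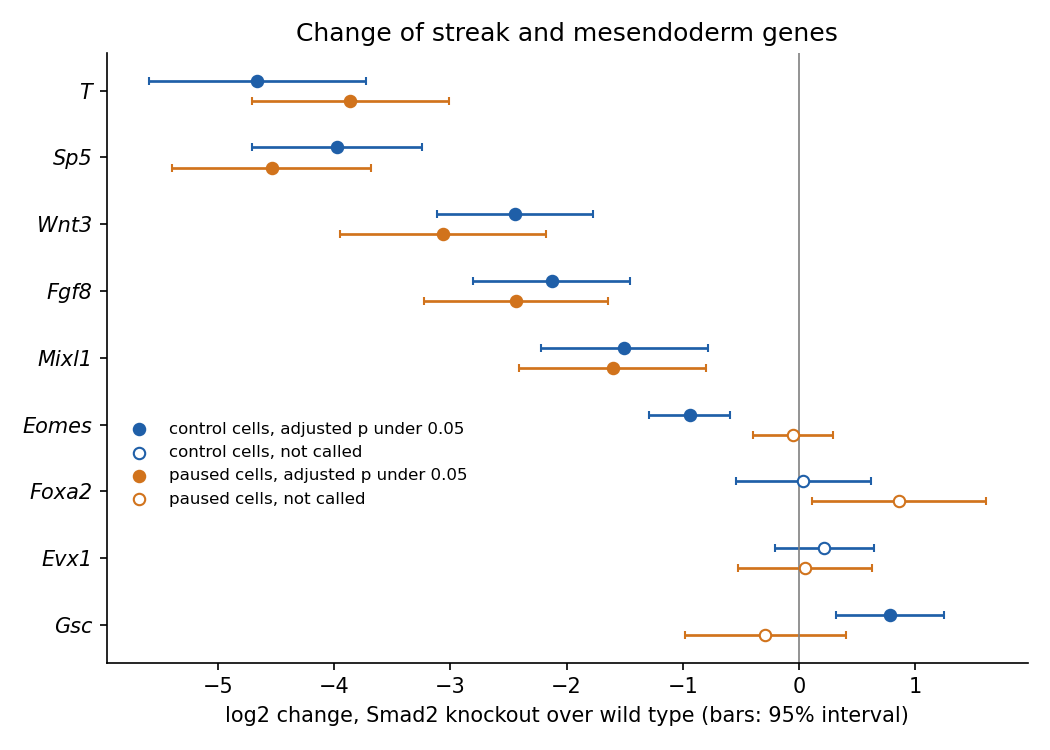
Log2 change of each member, Smad2 knockout over wild type, in control cells (blue) and paused cells (orange), with 95% intervals from the deposited standard errors. Filled points have an adjusted p under 0.05. T, Sp5, Wnt3, Fgf8 and Mixl1 lie below 0 in both conditions, while Eomes does so in control cells (-0.94) and is near 0 in paused cells (-0.06).

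Among the signals of the streak, Wnt3 codes for the Wnt ligand without which no streak forms. The gene is at chr11:103774150-103817957, plus strand. Its mean in the authors' deposited tables was 251 (control) and 107 (paused) normalized counts. Wnt3 fell by 2.45 (SE 0.34, adjusted p 2.95e-11) in control cells of the authors' deposited table, to 18.4% of wild type (11.5 to 29.3%). For paused cells, the value in the authors' deposited table was -3.06 (SE 0.45, adjusted p 1.84e-10), or 12.0% (6.48 to 22.1%). The changes differed by -0.62 (SE 0.57, interval -1.73 to 0.49, adjusted p 0.721), within their error.

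Fgf8 codes for the fibroblast growth factor that moves cells out of the streak (chr19:45736798-45742915, minus strand). It was scarce, with means of 32.8 normalized counts (control) and 21.0 (paused) in the authors' deposited tables. Fgf8 fell by 2.13 (SE 0.35, adjusted p 1.16e-08) under control conditions in the authors' deposited table, to 22.9% (14.3 to 36.6%). The paused fall in the authors' deposited table was -2.44 (SE 0.40, adjusted p 2.08e-08), to 18.5% (10.7 to 32.0%). Between conditions the change differed by -0.31 (SE 0.53, interval -1.35 to 0.74, adjusted p 0.884).

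T codes for brachyury, the T-box factor that defines the streak and later the notochord. It lies at chr17:8434423-8442496 on the plus strand (GRCm38, which is mm10). Its mean in the authors' deposited table was 319 normalized counts in control cells and 296 in paused cells. T fell by 4.66 (SE 0.48, adjusted p 9.11e-21) in the authors' deposited table of control cells, which leaves 3.95% of the wild-type level (95% interval 2.07 to 7.53%). In paused cells it fell by 3.86 (SE 0.43, adjusted p 1.55e-17) in the authors' deposited table, which leaves 6.88% (3.83 to 12.4%). By size of the fall, T ranked 5 of 19780 genes in control cells and 18 of 19979 in paused cells. The control and paused intervals overlap, and the change in paused minus control cells was 0.80 (SE 0.64, interval -0.46 to 2.06, adjusted p 0.662).

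Sp5 codes for a zinc-finger factor that is a direct target of Wnt and beta-catenin in the streak. It lies at chr2:70474923-70477729 on the plus strand. Its mean in the authors' deposited tables was 287 (control) and 302 (paused) normalized counts. Sp5 fell by 3.97 (SE 0.37, adjusted p 1.84e-24) in the authors' deposited table of control cells, to 6.36% of the wild-type level (3.83 to 10.6%). The paused fall in the authors' deposited table was -4.54 (SE 0.44, adjusted p 2.17e-23), to 4.31% (2.38 to 7.80%). Sp5 ranked 15 by size of the fall in control cells and 11 in paused cells. As for T, the paused and control changes were not told apart (-0.56, SE 0.57, interval -1.69 to 0.56, adjusted p 0.765).

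T and Sp5 fell furthest of the members, and Eomes is the T-box member whose change differed between the conditions, so the 250 bases before their annotated starts are shown. They were taken from RefSeq (GRCm38.p6), where 8 of the 10 members matched. Mixl1 and Fgf8 were not matched. Capitals mark matches to short motifs, searched on both strands: CTTTGAT for TCF/LEF, AATCCACA for FOXH1, CAGACA for SMAD, AGGTGTGA for T-box and GGGCGG for SP/KLF factors. No 2 matches overlap in these windows. Each window reads 5′ to 3′ along its gene, and none holds an exon base of the GENCODE annotation.
T, chr17:8434173-8434422, plus strand: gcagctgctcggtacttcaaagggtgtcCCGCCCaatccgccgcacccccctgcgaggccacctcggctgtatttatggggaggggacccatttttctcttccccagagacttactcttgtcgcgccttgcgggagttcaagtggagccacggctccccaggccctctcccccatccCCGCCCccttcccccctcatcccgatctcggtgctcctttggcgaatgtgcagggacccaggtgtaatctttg
Sp5, chr2:70474673-70474922, plus strand: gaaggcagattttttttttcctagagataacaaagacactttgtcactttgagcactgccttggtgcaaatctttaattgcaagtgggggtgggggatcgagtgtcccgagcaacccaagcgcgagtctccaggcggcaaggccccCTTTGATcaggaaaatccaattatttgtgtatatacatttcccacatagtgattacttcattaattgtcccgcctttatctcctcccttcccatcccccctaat
Eomes, chr9:118477939-118478188, plus strand: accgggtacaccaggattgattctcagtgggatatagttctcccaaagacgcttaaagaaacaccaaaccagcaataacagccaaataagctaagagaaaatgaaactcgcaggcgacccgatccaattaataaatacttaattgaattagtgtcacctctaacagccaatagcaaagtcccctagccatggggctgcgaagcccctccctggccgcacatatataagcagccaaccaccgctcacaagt

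The Sp5 window holds 1 TCF/LEF match, starting 104 bases before the start, a motif found in 3.21% of 32851 such windows, and that of Mesp1 holds 1 at 31 bases. The T window holds 2 matches to the SP/KLF motif, 222 and 73 bases before the start and both on the opposite strand, and 32.7% of all windows hold at least 1, as do those of Wnt3, which fell, and of Gsc and some of those of Foxa2, which were not called lower. The Eomes window holds no match to the 5 motifs. No match was found in any member window for FOXH1 (0.718% of all windows) or T-box (1.12%, though with 50 more bases after the start the Mesp1 window holds 1), and the single SMAD match lies before Evx1 (17.1% of all windows). With the same 50 bases added, a TCF/LEF match is also found for Foxa2, as in 3.73% of all windows. Of the 10 member windows, which come from 8 members, those with an SP/KLF match then number 6 instead of 5, from the same genes. These are letter matches and not shown to be sites. GC content was 62.8% for T, 46.0% for Sp5 and 46.4% for Eomes, where the median window has 52.4%.

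Mixl1 codes for a paired-type homeodomain factor of mesendoderm that Nodal signals switch on (chr1:180693043-180697034, minus strand). With means of 37.9 (control) and 30.2 (paused) normalized counts of the authors' deposited tables, it was as scarce as Fgf8. Mixl1 fell by 1.51 (SE 0.37, adjusted p 2.19e-04) in the authors' deposited table of control cells, to 35.2% (21.4 to 57.9%). For paused cells, the value in the authors' deposited table was -1.60 (SE 0.41, adjusted p 4.50e-04), to 32.9% (18.9 to 57.5%). The changes in the conditions lay 0.10 apart in size, with an interval for paused minus control of -1.18 to 0.98 (adjusted p 0.973).

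Eomes codes for the T-box factor that commits streak cells to definitive endoderm and anterior mesoderm, and it also acts in trophoblast (chr9:118478212-118486132, plus strand). Its mean, which pools the genotypes, was 266 (control) and 272 (paused) normalized counts in the authors' deposited tables, which were normalized separately. Eomes fell by 0.94 (SE 0.18, adjusted p 9.37e-07) in control cells of the authors' deposited table, to 52.0% of wild type (40.9 to 66.1%). Its paused value in the authors' deposited table was -0.06 (SE 0.18, adjusted p 0.831), or 96.2% (75.7 to 122%). These intervals do not overlap. The change in paused minus control cells was 0.89 (SE 0.25, interval 0.40 to 1.38, adjusted p 0.0326), and Eomes was the 1 member of 9 called for the difference, against 1.44% of 19134 genes. That call was lost when the adjusted p had to be under 0.01, when a 2-fold difference was required, against a null of at most 1.2-fold (adjusted p 1.0) and after scaling the statistic by its middle spread (adjusted p 0.333).

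Gsc codes for the homeodomain factor of the organizer, the anterior end of the streak (chr12:104471209-104473330, minus strand). It was the 1 member called higher as deposited, and in control cells only. Its mean in the authors' deposited tables was 39.4 (control) and 22.8 (paused) normalized counts. Gsc rose by 0.78 (SE 0.24, adjusted p 0.00345) in the authors' deposited table of control cells, to 172% of wild type (125 to 237%). Its paused value in the authors' deposited table was -0.29 (SE 0.35, adjusted p 0.538), or 81.7% (50.5 to 132%), so the intervals overlap. The difference between conditions was -1.08 (SE 0.43, interval -1.91 to -0.24), which did not pass the threshold over all genes (p 0.0115, adjusted p 0.207). The control call was lost against a null of at most 1.2-fold (adjusted p 0.190), with a 2-fold change required and with the scaled statistic (adjusted p 0.884).

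Foxa2, the forkhead factor of node and definitive endoderm, was the scarcest listed member (chr2:148042877-148046969, minus strand). Its change in the authors' deposited table was 0.04 (SE 0.30, adjusted p 0.938) in control cells. For paused cells, the value in the authors' deposited table was 0.86 (SE 0.38, p 0.0244, adjusted p 0.0561), or 181% of wild type (108 to 304%). This value just missed the threshold, and it passed with equal summed counts in both genotypes (adjusted p 0.0470). The difference was 0.82 (SE 0.48, interval -0.12 to 1.77, adjusted p 0.485).

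Evx1, a homeodomain factor of the posterior streak, was not called in either table (chr6:52313498-52318378, plus strand). Its mean in the authors' deposited tables was 82.6 (control) and 31.1 (paused) normalized counts. The changes in the authors' deposited tables were 0.22 (SE 0.22, adjusted p 0.452) and 0.05 (SE 0.29, adjusted p 0.908). The 95% intervals, 86.5 to 156% of wild type in control and 69.6 to 154% in paused cells, do not reach the levels of T or Sp5.

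**Figure D2:**
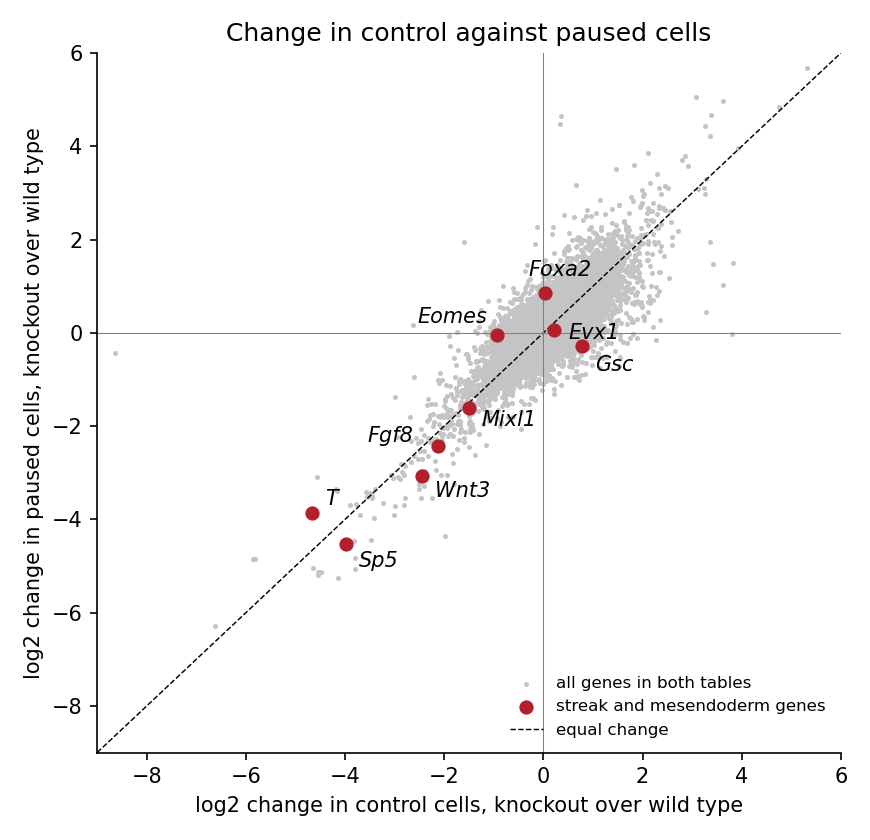
Log2 change in control cells (x axis) against paused cells (y axis), Smad2 knockout over wild type, for 19134 genes (grey) and the 9 members (red). The dashed line marks equal change. T, Sp5, Wnt3, Fgf8 and Mixl1 lie below 0 on both axes, and the paused value minus the control value is largest in size for Gsc (-1.08), Eomes (0.89), Foxa2 (0.82) and T (0.80), of which only that of Eomes was called.

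The means were also set beside each other as levels. Per kilobase of the longest GENCODE M21 transcript, the order in control cells was T (156 normalized counts per kb), Sp5 (136), Wnt3 (81.5), Eomes (74.7), Gsc (31.1), Evx1 (28.7), Fgf8 (28.1), Mixl1 (16.5) and Foxa2 (8.30), from the authors' deposited means. In paused cells T (145) and Sp5 (144) led, followed by Eomes (76.5), Wnt3 (34.9), Gsc and Fgf8 (18.0 each), Mixl1 (13.2), Evx1 (10.8) and Foxa2 (6.34), again from the authors' deposited means. The order depends on the transcript used: by median transcript length T stood at 419 in control and 389 in paused cells, and in control cells Eomes (92.7) passed Wnt3 (81.5) while Evx1 (42.3) and Fgf8 (34.5) passed Gsc (31.1). These means pool the genotypes, so a gene that fell stands lower than in wild-type cells alone. On implied wild-type levels with 4 and 8 libraries, Fgf8 (57.8 per kb) and Mixl1 (29.1) stood above Evx1 (25.9) and Gsc (21.0) in control cells. With 4 and 4, Mixl1 (24.5) was below Evx1 (26.6) there. For paused cells with 4 and 8 libraries, Sp5 (398) stood above T (382) and Wnt3 (84.4) above Eomes (78.4). Fgf8 (39.3) and Mixl1 (23.8) then stood above Gsc (20.5). With 4 and 4, Wnt3 (62.3) was below Eomes (77.9) in paused cells. The tables give no spread for a mean, so neighbours in this order cannot be told apart by a test. Relative to the sum of each table, the paused mean was 0.391 times the control mean for Evx1, 0.445 times for Wnt3 and 0.601 times for Gsc, while the ratio was 0.966 for T, 1.06 for Eomes and 1.10 for Sp5. The tables were normalized separately, so these ratios are a description.

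A mean and a change together imply a level in each genotype, once the number of libraries is assumed, and holds only if the change is knockout over wild type. With 4 wild-type and 8 knockout libraries, T would stand at 886 normalized counts in wild-type and 35.0 in knockout control cells, and at 781 and 53.7 in paused cells. Sp5 would go from 763 to 48.5 in control and from 835 to 36.0 in paused cells, and Wnt3 from 550 to 101 and from 260 to 31.1. Eomes would go from 391 to 203 in control cells and stay between 279 and 269 in paused cells. Foxa2 would stand at 8.76 in paused wild-type cells (9.60 with 4 and 4 libraries). Fgf8 would stand at 8.49 in paused knockout cells (6.54 with 4 and 4), so both paused changes rest on a group near the count floor. With 4 and 4 libraries the wild-type level of T would be 613 in control cells and its knockout level 24.2. Summed over the 9 members, the implied level was 2843 in wild-type and 577 in knockout control cells, and 2321 and 484 in paused cells.

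**Figure D3:**
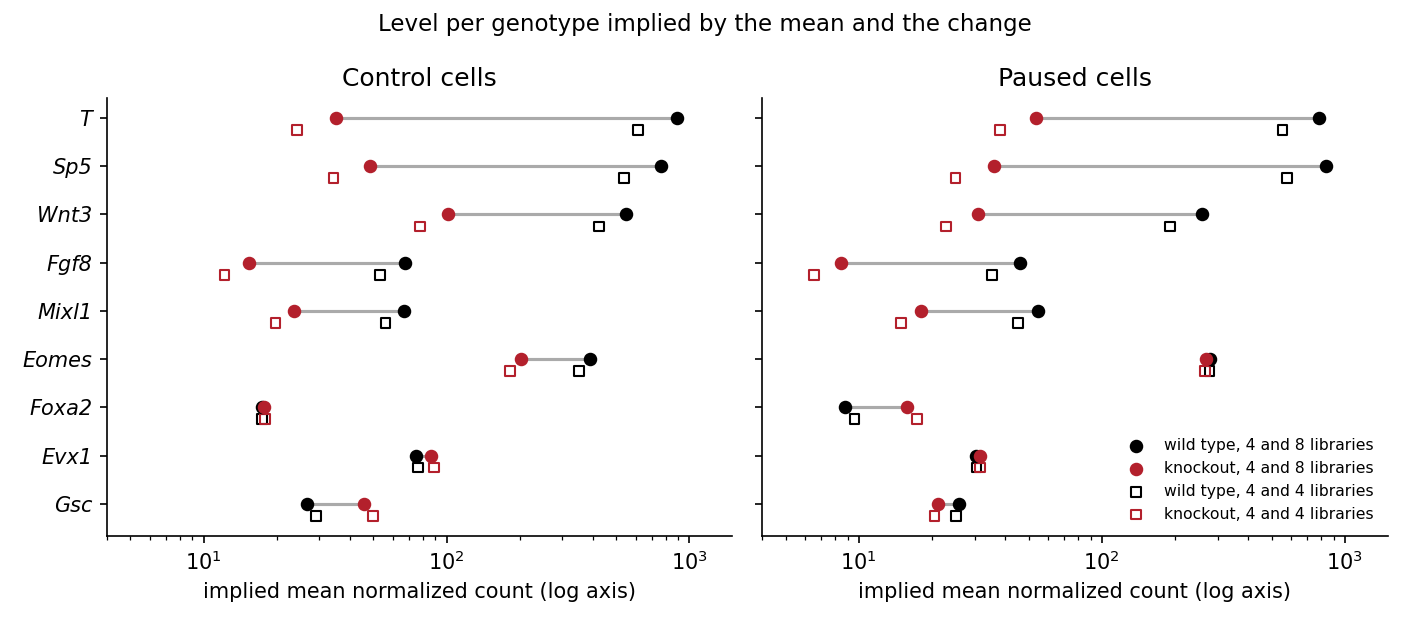
Mean normalized count per genotype implied by the deposited mean and change, on a log axis, for control (left) and paused cells (right). Circles assume 4 wild-type and 8 knockout libraries and squares 4 and 4. T goes from 886 in wild type to 35.0 in the knockout of control cells, while wild type and knockout nearly coincide for Eomes in paused cells (279 and 269).

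All measured members but Foxa2 had a larger SE than the median gene of like abundance in both tables. Among genes with a mean within 1.25-fold of its own, the SE of T was at percentile 99.7 in control cells (SE 0.48, where the median of 988 such genes was 0.10) and 99.5 in paused cells. Sp5 was at percentiles 99.3 and 99.6, Wnt3 at 99.2 and 99.6, Mixl1 at 98.7 and 98.6, and Fgf8 at 97.3 and 95.7. Eomes was at 91.2 and 91.9, Evx1, called in neither table, at 87.8 and 84.1, and Gsc at 59.9 and 89.1. Foxa2, also called in neither, was at 19.9 and 56.9. Among genes of like mean that fell by at least 4-fold, whatever their p, the median SE was 0.41 in control cells for the 5 around T and 0.39 for the 6 around Sp5, so T and Sp5 are close to other genes with such a fall. Counting error alone would give T an SE of 0.09 in control cells with 4 and 8 libraries and 0.15 with 4 and 4, and the deposited SE, which also holds the spread between samples, was 5.31 or 3.18 times that. How much of it lies between the knockout lines was not tested.

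**Figure D4:**
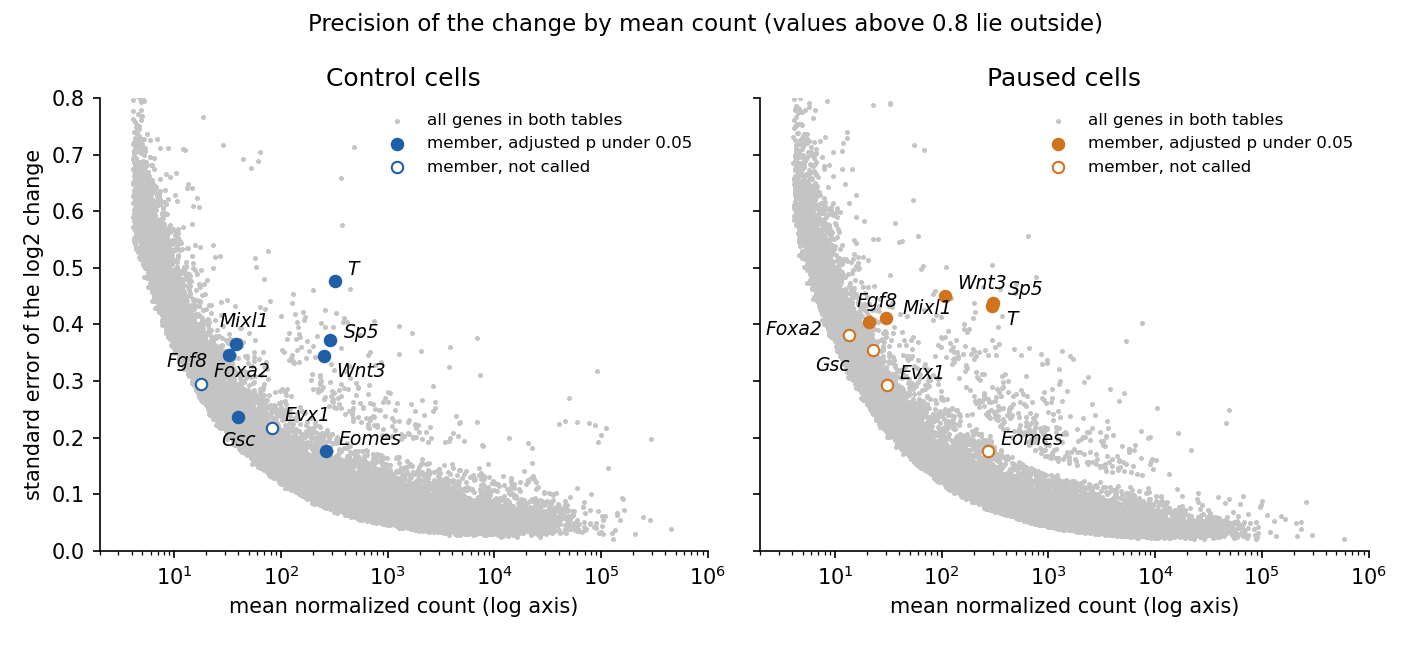
Standard error of the log2 change (shown up to 0.8) against the mean normalized count (log axis) for all genes in both tables (grey) and the members, in control (left) and paused cells (right). T, Sp5 and Wnt3 stand above the grey band at their mean, and Eomes, Gsc, Evx1 and Foxa2 lie in or near it.

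The calls rest on the deposited standard errors. With the statistic scaled so that its middle spread is that of unchanged genes, T (adjusted p 0.0316) and Sp5 (adjusted p 0.0127) were the 2 members still called in control cells, and Sp5 (adjusted p 0.0152) the 1 still called in paused cells, where T had an adjusted p of 0.0591. With equal summed counts, 60.5% of control calls over all genes were higher, against 47.1% as deposited, and no member that was called lower changed its call.

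Other genes of streak and nascent mesoderm were 18 by a list chosen with earlier results of these data known. Of the 16 in the authors' deposited tables, 6 were called lower and 3 higher in control cells, and 8 lower and 3 higher in paused cells, where 21.9% and 22.0% of all genes were called lower. The called falls include Nkx1-2, a homeobox gene of the caudal streak, at -3.00 (SE 0.50) and -3.72 (SE 0.65), by the authors' deposited tables (control, then paused). Sp8, the close relative of Sp5, fell, with changes of -2.10 (SE 0.24) and -1.78 (SE 0.35) in the authors' deposited tables. Rspo3, a secreted enhancer of Wnt signals, changed by -1.48 (SE 0.42) and -1.32 (SE 0.54), and Cdx1, a posterior homeobox gene, by -1.21 (SE 0.25) and -0.92 (SE 0.25), all called, in the authors' deposited tables. The 3 genes called higher were the same in both tables, a share near the 19.5% and 20.5% of all genes. Hand1, a factor of lateral and extraembryonic mesoderm and of trophoblast, rose by 1.95 (SE 0.18) and 2.69 (SE 0.26), and Pdgfra, a receptor of mesoderm and primitive endoderm, by 1.41 (SE 0.15) and 1.70 (SE 0.12), by the authors' deposited tables (control, then paused). The third was Snai1, a repressor that lets streak cells leave the epithelium, named after its values were seen, which rose by 0.65 (SE 0.13) and 0.74 (SE 0.10) in the authors' deposited tables. In the authors' deposited tables, the list's median was -0.22 in control and -0.80 in paused cells.

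No definitive endoderm or node gene was called lower. Of the 13 listed, 10 were in the authors' deposited tables, where 5 rose and 0 fell in control cells and 6 rose and 0 fell in paused cells, against 19.5% and 20.5% of all genes called higher and 21.9% and 22.0% called lower. Sox17 rose by 2.19 (SE 0.31) and 1.28 (SE 0.32), Gata6 by 1.76 (SE 0.18) and 1.35 (SE 0.17), and the Wnt inhibitor Dkk1 by 1.45 (SE 0.28) and 1.22 (SE 0.34), by the authors' deposited tables (control, then paused). Gata4 rose by 1.01 (SE 0.13) and 0.59 (SE 0.13) and Foxa1 by 0.76 (SE 0.15) and 0.72 (SE 0.14) in the authors' deposited tables. Sox17, Gata6 and Gata4 are also markers of primitive endoderm, an extraembryonic lineage. Of the 9 primitive endoderm markers, 7 were called higher and 1 lower in each of the authors' deposited tables. Their summed implied level, for 4 and 8 libraries, was 27554 normalized counts in wild-type and 31473 in knockout control cells, and 23664 and 27669 in paused cells. Much of that sum is Sparc and Lamb1, with means of 14049 and 7163 normalized counts in the authors' deposited table of control cells. There Sparc was not called (0.15, adjusted p 0.0820) and Lamb1 was called lower (-0.34, SE 0.05). The part of primitive endoderm cells in the changes of the streak genes was not tested.

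Trophoblast markers include Eomes and Hand1, already described. Of its 8 genes, 2 (Hand1 and Gata3) were called higher and 2 (Eomes and Cdx2) lower in the authors' deposited table of control cells, and 2 higher and 1 (Cdx2) lower in that of paused cells. These counts are near the shares over all genes, 19.5% higher and 21.9% lower for the control table and 20.5% and 22.0% for the paused one. Gata3 rose by 1.54 (SE 0.13) and 2.04 (SE 0.15) by the authors' deposited tables (control, then paused), while Cdx2 fell, with changes of -0.84 (SE 0.22) and -0.92 (SE 0.35). The implied sum of the list, Eomes included, was 20239 normalized counts in wild-type and 15862 in knockout control cells, and 21794 and 18722 in paused cells. Much of that sum is Krt8 and Krt18, keratins with means of 6942 and 3829 normalized counts in control cells of the authors' deposited table, neither of them called there (-0.78, adjusted p 0.0831, and -0.56, adjusted p 0.215). The part of such cells in the change of Eomes was not tested.

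Lefty1 and Lefty2 fell furthest among the genes counted in the Nodal and activin pathway. Of 16 genes, 15 were in the authors' deposited tables, with 8 called lower and 2 higher in control cells and 10 lower and 1 higher in paused cells. Smad2, whose fall set the direction, is among those counted as lower, which leaves 7 and 9 others. Of all genes, 21.9% and 22.0% were called lower, but these include scarce genes, while the lowest listed means were 618 and 620. With a minimum mean of 230 normalized counts, 5569 of 10795 genes were called in control cells, 36.8% of them higher. With a minimum of 221 in paused cells, 5834 of 11006 were called, 38.1% of them higher. The background for lower calls is thus larger among abundant genes, and the list was not tested against it. The higher calls are not above the background of 19.5% and 20.5% of all genes. The secreted Nodal antagonists changed, Lefty2 by -2.89 (SE 0.12) and -3.13 (SE 0.12) and Lefty1 by -2.52 (SE 0.14) and -3.34 (SE 0.21), all called, by the authors' deposited tables (control, then paused). Nodal itself, chosen after its values were seen, was 0.03 (SE 0.07, adjusted p 0.780) in control and -0.14 (SE 0.04, adjusted p 0.00226) in paused cells of the authors' deposited tables. Pcsk6, a protease that matures Nodal, rose by 0.81 (SE 0.06) and 0.66 (SE 0.05) in the authors' deposited tables. Skil, which holds Smad proteins in check, fell, with changes of -0.63 (SE 0.07) and -0.32 (SE 0.07) in the authors' deposited tables.

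The Wnt pathway, with 17 of 17 genes in the authors' deposited tables, had 8 called lower and 3 higher in control cells and 10 lower and 2 higher in paused cells. Over all genes these shares were 21.9% and 19.5%, then 22.0% and 20.5%, so the higher calls are not above the background. Most of the listed genes are abundant, and among abundant genes the background for lower calls is larger, as given for the Nodal list. The lower calls were not tested against genes of like abundance. The scarce Lgr5, a receptor that strengthens Wnt signals, had means of 11.5 and 4.92 normalized counts and called changes of -1.32 (SE 0.54) and -1.67 (SE 0.57) in the authors' deposited tables. Rnf43, which clears Wnt receptors from the cell surface, had called changes of -0.95 (SE 0.35) and -1.27 (SE 0.28) in the authors' deposited tables. Wls, which carries Wnt proteins out of the cell, fell, with changes of -1.15 (SE 0.23) and -0.75 (SE 0.20) by the authors' deposited tables (control, then paused). Lef1, a nuclear partner of beta-catenin, fell, with changes of -0.59 (SE 0.14) and -0.47 (SE 0.11), and Porcn, which adds the lipid that Wnt proteins need, rose by 0.40 (SE 0.07) and 0.55 (SE 0.07), in the authors' deposited tables. Wnt3a, the ligand of the later streak, was not called in control cells (-0.31, SE 0.19) and fell by 0.86 (SE 0.29) in paused cells of the authors' deposited tables, a difference between conditions that was not called either (-0.55, adjusted p 0.544). The falls named in this pathway were all smaller than that of Wnt3.

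In the FGF pathway, all 10 listed genes were in the authors' deposited tables, with 5 called lower and 1 higher in control cells and 6 lower and 2 higher in paused cells. The higher calls are not above the background of 19.5% and 20.5%, and the background for lower calls was 21.9% and 22.0%. Most of these genes are also abundant, so these all-gene shares understate the background for lower calls. Fgf5, a ligand of the epiblast, fell, with changes of -2.61 (SE 0.28) and -2.63 (SE 0.31) in the authors' deposited tables. Dusp6, the phosphatase that limits ERK signals, fell, with changes of -1.17 (SE 0.14) and -1.14 (SE 0.16), and Fgf15, another ligand, was at -0.66 (SE 0.14, called) and -0.31 (SE 0.19, not called), in the authors' deposited tables. Fgf4, the ligand that stem cells make themselves, rose by 0.50 (SE 0.07) and 0.48 (SE 0.06), in the authors' deposited tables.

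**Figure D5:**
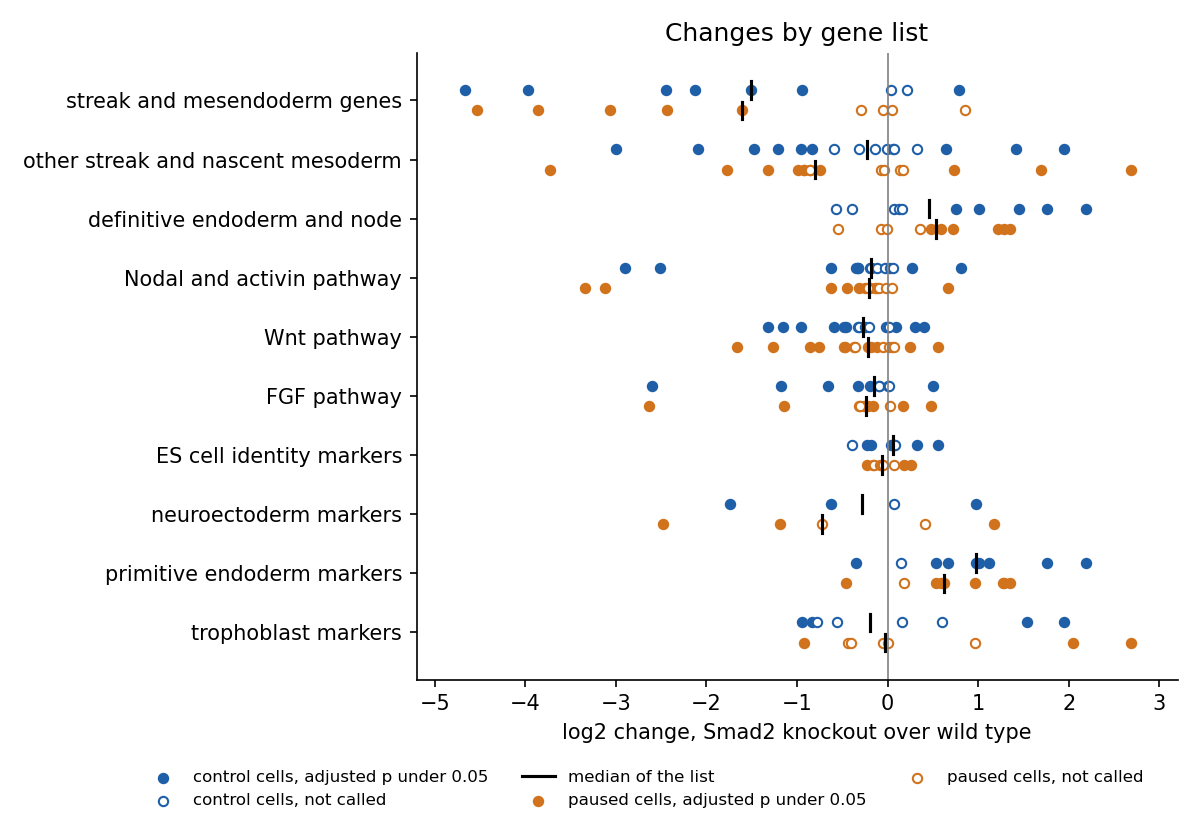
Log2 change of every listed gene, Smad2 knockout over wild type, by gene list, in control (blue) and paused cells (orange). Filled points have an adjusted p under 0.05 and black ticks are medians of a list. The members reach from -4.66 to 0.78 in control cells, and definitive endoderm and primitive endoderm genes lie mostly above 0.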

How the data were processed

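Poly(A) RNA of 24 libraries in 6 groups of 4, grouped by title, was measured. The tools named in the submitters' processing notes are FastQC, Trim Galore, HISAT2, featureCounts and DESeq2, with the build mm10; versions, annotation, strand setting and the libraries in each comparison are not given in the sources used here. The authors deposited 1 results table per condition, per the file headers in DESeq2's columns. The mean normalized count is a signal value deposited as the authors' mean. The change is a deposited log2 ratio with its standard error on the same log2 scale. The statistic is a score the authors deposited, equal to change over standard error. Each p-value and its adjusted form were deposited too, and the adjustment was checked to be Benjamini-Hochberg over all genes.

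Calls use the authors' deposited DESeq2 tests, at an adjusted p under 0.05. The difference is the paused minus the control change over its standard error (both deposited errors added in quadrature), and its two-sided p, from the normal distribution, was adjusted over 19134 genes. In a simulation, 63.5% of 200 genes with a true 2-fold shift were called, and 5.93% of all simulated calls were false. In the deposited data the middle spread of this statistic was 1.23 times that of unchanged genes. Scaling by it left 35 of 275 calls and ended that of Eomes (adjusted p 0.333). The simulated share of false calls is therefore no measure of false calls in the deposited data. Intervals are 95% normal intervals of the deposited change. The depth per library is unknown. Named genes were the 10 members, Smad2, and at most 6 called genes per other list by size of change (not all printed). The 3 genes nearest to T and overlapping or neighbouring genes were named by the same rule. Nodal, Snai1, Krt8, Krt18, Sparc and Lamb1 were named outside this rule, after their values were seen. Members and lists were chosen with earlier results of these data known. A gene of the Nodal and activin list is not reported here and was left out of its counts. Coordinates and lengths are those of GENCODE M21 on GRCm38. Python 3.11.15, numpy 2.4.6, scipy 1.17.1, pandas 2.3.3 and matplotlib 3.10.9 were used. Alternatives were a 2-fold threshold, an adjusted p under 0.01, a null of at most 1.2-fold, a scaled statistic, equal summed counts, a minimum of 5 ppm of the summed means, the median transcript length, other library numbers and the whole promoter window.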

Additional observations from a re-analysis of the deposited data

Results flagged for a closer look

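The change of Eomes in the Smad2 knockout differed between the conditions by a test of the difference itself. In paused minus control cells it was 0.89 (SE 0.25, adjusted p 0.0326), from -0.94 in control and -0.06 in paused cells of the authors' deposited tables. No other of the 9 members passed this test, and Gsc had the next smallest p (0.0115, adjusted p 0.207).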

How the results depend on the processing

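No paired analysis was possible because the tables hold no value per library, and for the same reason the replicate block and the fits that leave out a replicate were not run. Over all genes, the 8189 control calls became 1380 with a 2-fold change required, 2090 against a null of at most 1.2-fold and 293 after scaling the statistic by its middle spread. The 8504 paused calls became 1418, 2122 and 450 in the same order. The 275 calls for the difference became 28, 2 and 35, and 102 at an adjusted p under 0.01, and 35.9% of 295 such calls were positive once summed counts were made equal, where 49.8% were as deposited. The 6 members called lower in control cells became 2 with the scaled statistic, 5 with a 2-fold change required, which ends the call of Eomes, and 4 with the minimum on abundance, which keeps 4 members. The 5 called lower in paused cells became 1, and 2 with the minimum on abundance, which keeps 3 members there. The 1 called higher in control cells (Gsc) became 0 with a 2-fold change required, against 1.2-fold, with the scaled statistic and with the minimum on abundance, which leaves Gsc out. The 0 called higher in paused cells became 1 (Foxa2) with equal summed counts, for 8 knockout libraries and for 4, the last chosen after seeing the data. The 1 called for the difference (Eomes) became 0 under the 2-fold, 0.01, 1.2-fold and scaled settings. Most of these settings leave the changes as deposited, and equal summed counts shifts all genes alike, so they do not test a direction. For the minimum on abundance, fewer genes tested is the cause; for the others the cause was not tested. No depth is known, so the deposited standard errors are the limit of precision.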

Other observations

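Likeness to T was measured as the distance between genes over the 2 log2 changes, control and paused, among 17534 other genes with a standard error of at most 0.5 in both tables. The 3 nearest genes were 2310007B03Rik (distance 0.68), Sp5 (0.96) and Cysltr1 (1.04). The gene 2310007B03Rik in the authors' deposited tables changed by -4.17 and -3.40 and Cysltr1, a leukotriene receptor gene, by -3.83 and -4.47 in control and paused cells. For Sp5 the nearest was Cysltr1 (0.16).

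Some of the genes beside the members were called and others not. In the authors' deposited tables Pde10a, the neighbour of T, was at -0.08 (adjusted p 0.840) in control and 0.51 (adjusted p 0.0746) in paused cells, and T2 on its other side at -0.65 (adjusted p 0.381) and 0.22 (adjusted p 0.806). Npm3, next to Fgf8, was at -0.07 (adjusted p 0.260) and -0.03 (adjusted p 0.513) in the authors' deposited tables. Beside Wnt3, the scarce Wnt9b (mean 9.47 normalized counts) fell by 1.48 (SE 0.47, adjusted p 0.00603) in control cells, with no call under pausing (-0.65, adjusted p 0.305), while Nsf rose by 0.25 (adjusted p 6.35e-08) and 0.11 (adjusted p 0.00417), in the authors' deposited tables. Gad1os, beside Sp5 at a mean of 4.60, fell by 1.69 (adjusted p 0.0156) in control cells of the authors' deposited table and was at -1.02 (adjusted p 0.0530) in paused cells. Lin9, 2349 bases from Mixl1, fell by 0.16 (SE 0.05, adjusted p 0.0113) in control cells and was at -0.05 (adjusted p 0.396) in paused cells of the authors' deposited tables. Mesp2, the neighbour of Mesp1, was at 0.06 (adjusted p 0.763) and -0.04 (adjusted p 0.874) in the authors' deposited tables. Of antisense genes that overlap a member, Evx1os was at 0.25 (adjusted p 0.596) and 0.67 (adjusted p 0.131), and Gm33460, over Eomes, at -0.80 (adjusted p 0.177) and 0.17 (adjusted p 0.764), in the authors' deposited tables. Whether counting used strand is not given in the sources used here, so reads of these pairs may not be separated.

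Few neuroectoderm markers, of a lineage apart from the streak, were measured. The authors' deposited table of control cells holds 4 of the 6, among which Nes (-1.74, SE 0.16) and Pax6 (-0.63, SE 0.17) fell and Sox1 (0.98, SE 0.16) rose. The same 3 were called the same way in the paused table (-2.48, -1.19 and 1.18), which holds 5 of the 6. The background for lower calls was 21.9% of genes (control table) and 22.0% (paused table). For higher calls it was 19.5% and 20.5%, so the 1 higher call is near the background. Whether the 2 lower calls exceed theirs was not tested on a list this short.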
